A study of Mus musculus with 2 samples.

Results

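Genomic imprinting marks some genes so that the copy inherited from the father or the copy inherited from the mother is the one expressed. Imprinted genes lie in domains that share a methylated control region, and many of them set fetal and placental growth. Plagl1, also called Zac1, encodes a zinc finger transcription factor expressed from the paternal copy that restrains cell growth and is known to regulate other imprinted genes. The genes described here are 42 protein-coding genes of mouse imprinted domains, Plagl1 among them, out of 34960 gene names on the array. They were chosen by name: a probe belonged to a member where its gene name in the scanner file was that member and it was no control. Plagl1 was already known from these data to differ between the arrays when the members were chosen, so its values are given as a description.

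RNA came from regulatory T (Treg) cells, CD4 T cells that restrain immune responses, sorted from mice of 5 weeks. There was 1 array of cells labelled Nr4a-TKO and 1 array of wild-type cells. The Nr4a family consists of the nuclear receptors Nr4a1, Nr4a2 and Nr4a3, and the labels name the genotype without giving the alleles, the sex of the mice, how many mice were used, or the sorting markers. The assay was a 1-colour Agilent expression array, on which labelled copies of the RNA bind 60-base probes and the brightness of each spot is read. There are no replicates, so each difference is between 2 arrays, no test was possible, and their number limits the precision.

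Values are log2 signals less the 75th percentile of the array, and a difference is the value of the array labelled Nr4a-TKO minus that of the wild-type array. A probe was measured where the scanner called it well above background on both arrays, and a gene was represented by its probe of highest mean signal. Of 55676 probes, 35567 (63.9%) were well above background on the array labelled Nr4a-TKO and 36732 (66.0%) on the wild-type array. Spots of 1 probe repeated on the same array had a median SD of 0.05 and 0.06, which gives 0.08 for a difference. This measures the array surface and not variation between mice. Over the 23493 gene names measured, the median difference was 0.08 with an SD of 0.56.

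The label and the cell type were checked first. Nr4a1 had a log2 signal of 6.96 on the array labelled Nr4a-TKO and 6.90 on the wild-type array, and Nr4a2 had 0.18 and -1.16. Nr4a3 had -3.93 and -1.11. The signals of Nr4a1 and Nr4a2 were thus not lower, so the genotype is used here as a label only, and directions refer to that label. Foxp3, the factor that defines Treg cells, was well above background on both arrays, at -2.57 on the array labelled Nr4a-TKO and 1.54 on the wild-type array. The 8 T cell and Treg markers on the array summed to a linear signal, in units of the 75th percentile, of 484 on the array labelled Nr4a-TKO and 519 on the wild-type array, but 241 and 330 without Cd5. Among the 8, Foxp3, Ikzf2 and Ctla4 were past 2-fold lower, by 17.2-fold, 3.07-fold and 2.29-fold, and 0 were past 2-fold higher. Over all names 3.06% were at least 2-fold lower and 3.15% at least 2-fold higher. Xist, which coats the inactive X chromosome of female cells, was brighter at 7 of 7 probes on the array labelled Nr4a-TKO. The 2 probes that the file names Xist were not well above background on the wild-type array and were at least 106-fold and 61.3-fold brighter. The part of these differences in the results below was not tested, and genotype and any other difference between these 2 samples cannot be told apart. These are bulk samples, in which fewer cells of a type and less RNA per cell cannot be told apart.

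Plagl1 had 4 probes, all on the plus strand of chromosome 10 (mm9) and all well above background on both arrays. They lie at 12848421 to 12848480, 12848851 to 12848910, 12850832 to 12850891 and 12851280 to 12851339. The file places their first bases at 2180, 2610, 4591 and 5039 of the transcript. The spacing along the transcript equals the spacing on the chromosome, with a mismatch of 0 bases, so no intron lies between them. Their sequences are shown because the upstream pair and the downstream pair differed in the size of the difference. In the first sequence the capitals mark 4 CCACAG units, and in the second they mark the stop triplet at its end. In the last 2, shown for 30 bases from the start of a shared run, they mark the 26 bases that both probes hold.
Plagl1 probe at base 2180: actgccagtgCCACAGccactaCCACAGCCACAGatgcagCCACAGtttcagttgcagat
Plagl1 probe at base 2610: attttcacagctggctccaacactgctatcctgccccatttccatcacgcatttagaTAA
Plagl1 probe at base 4591: ATCTCCTAACCTTTGATGACTCTGTActtt
Plagl1 probe at base 5039: ATCTCCTAACCTTTGATGACTCTGTAtttc

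The probe at base 2180 can be read in all 3 frames without a stop, and the probe at base 2610 in 1 frame, with TAA as its last 3 bases in the frame that starts at its first base. Neither downstream probe can be read in any frame without a stop (0 of 3 frames). The downstream probes share a second run of 18 bases, set 4 bases after the first, so they are not independent measurements of the transcript. No other probe of the array shared 20 bases with any Plagl1 probe (0 for each of the 4). Bases in G or C made up 55.0% and 45.0% of the upstream probes and 36.7% of each downstream probe.

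Both downstream probes were brighter by about the same factor on the array labelled Nr4a-TKO. The probe at base 4591 had a processed signal of 22006 ± 2201 on the array labelled Nr4a-TKO and 3051 ± 305 on the wild-type array, where the error is the scanner's own estimate for the spot. Such signals are given before scaling, and differences and folds after it. The difference was 2.99, or 7.97-fold. At base 5039 the signals were 19052 ± 1905 on the array labelled Nr4a-TKO and 2561 ± 256 on the wild-type array, a difference of 3.04 or 8.22-fold. The scanner errors of the arrays did not overlap at either probe.

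The upstream probes were also brighter on the array labelled Nr4a-TKO, by much less. At base 2180 the signals were 155 ± 16.9 on that array and 128 ± 14.2 on the wild-type array, a difference of 0.43. At base 2610 they were 137 ± 15.6 and 100.4 ± 12.4, a difference of 0.59. Neither reached 2-fold. On the signals before scaling the scanner errors of the arrays overlapped at base 2180. Scaling shifts the arrays by different amounts, so that overlap need not hold for the scaled difference. With normexp background correction the differences at the upstream probes were 1.23-fold and 1.31-fold. Normexp models the local background in place of the scanner's own correction, and was run here with an offset of 50 added to every signal. That offset by itself makes the folds of dim probes smaller, here and below, and hardly moves bright ones. Normexp left the downstream probes at 7.75-fold and 8.14-fold.

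The differences of the 4 probes thus spanned 2.61 on the log2 scale. Among 6748 gene names with several measured probes the median span was 0.25 and the 95th percentile 1.16, which puts Plagl1 at percentile 99.6. Plagl1 was chosen with its large difference known, and a large difference leaves room for a wide span. This rank is therefore a description only. Of the 8 members with several measured probes, the next widest was Inpp5f at 0.54. As the mean of its 4 probes Plagl1 was higher by 1.76, or 3.39-fold. Which transcript ends these probes report was not tested.

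**Figure D1:**
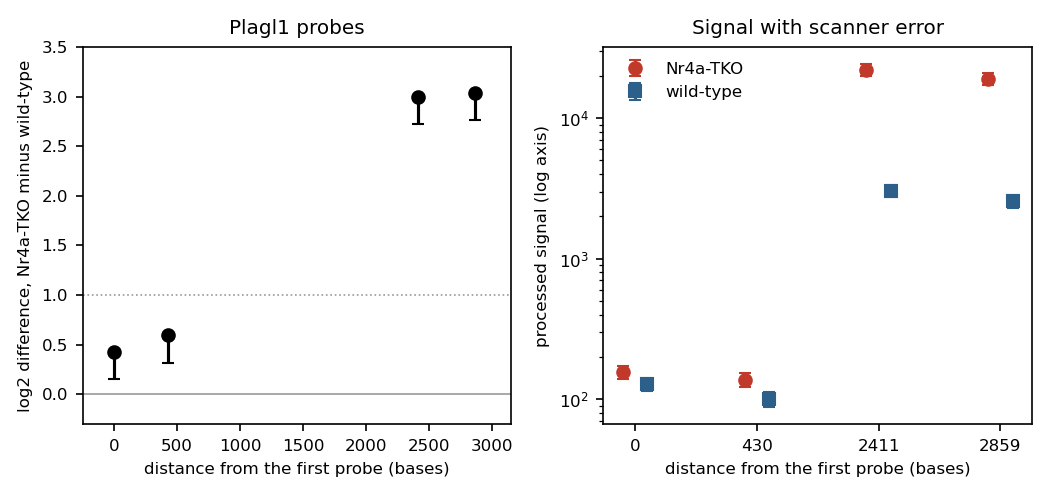
Left, the log2 difference of each Plagl1 probe (Nr4a-TKO minus wild-type) against its distance in bases from the first probe, with a dotted line at 2-fold. Bars run from the lowest to the highest value over the chosen setting and other scalings and background corrections. Right, the processed signal on a log axis with the scanner's error for each array; the downstream probes stand at 2.99 and 3.04 and the upstream probes at 0.43 and 0.59.

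Genes next to Plagl1 on the chromosome differed by less than its downstream probes, though Fuca2 and Adat2 differed by more than its upstream ones. Within 500 kb of its probes lay 9 other genes with probes, of which 7 were measured. Of the 7, 0 were past 2-fold, beside 6.22% of all names. Their differences ran from 0.05 to 0.98 with a median of 0.30, beside 0.08 over all names. Fuca2, a fucosidase gene, had the widest at its brightest probe, with -0.84 on the array labelled Nr4a-TKO and -1.82 on the wild-type array, and its other probes differed by 0.74 and 0.77. Adat2 differed by 0.63, Sf3b5 by 0.56, Stx11 by 0.30, Pex3 by 0.25 and Ltv1 by 0.24. Phactr2, itself reported as imprinted in mouse, had -1.17 and -1.22, a difference of 0.05, with a second probe at -0.18 and another, above background on the wild-type array alone, at -0.87. Utrn and Zc2hc1b had no probe well above background on either array. At their brightest probes the 7 neighbours were higher in this scaling, a direction that 59.6% of all measured names had. With spike-in centring Phactr2, Ltv1 and Pex3 turned below 0.

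**Figure D2:**
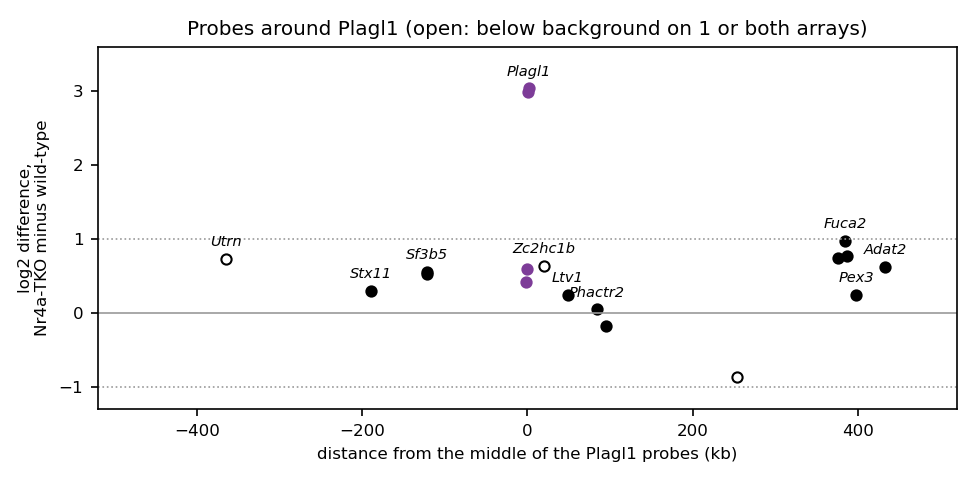
The log2 difference (Nr4a-TKO minus wild-type) of every probe within 500 kb of Plagl1 against its distance in kb from the middle of the Plagl1 probes, with Plagl1 in purple, open circles for probes not well above background on 1 or both arrays, and dotted lines at 2-fold. The downstream Plagl1 probes stand near 3.0, and the measured neighbours lie below the upper dotted line.

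The 42 members had 71 probes, of which 39 were measured, 3 passed the background call on a single array and 29 on neither. By gene, 27 members were measured, 3 were above background on 1 array and 12 on neither. At least 2-fold higher on the array labelled Nr4a-TKO were 3 of the 27 (11.1%), namely Plagl1, Ddc and Dlk1, where 3.15% of all measured names were. At least 2-fold lower were 0 of 27, where 3.06% of all names were, and in either direction 3 of 27 stand beside 6.22% of all names. Because results of these data were known when the members were chosen, nothing is read from these shares. By any amount 17 of 27 members (63.0%) were higher, beside 59.6% of all names, and the median member difference was 0.05, beside 0.08. Outside Plagl1, Ddc and Dlk1, the other 24 members lay between -0.87 and 0.82.

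The zero of these differences depends on the scaling. Centring on spike-in controls, RNA added in equal amounts, moved every difference by -0.27, and centring on 15 housekeeping genes moved it by -0.14. Over 8 other scalings and background corrections 19 of the 27 members kept the sign of their difference, 9 higher and 10 lower, and 8 turned at least once. Ube3a, Commd1, Impact and Blcap turned with spike-in centring only, while Asb4, Osbpl5, Slc22a18 and Atp10a turned in 5, 5, 6 and 3 of the 8.

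**Figure D3:**
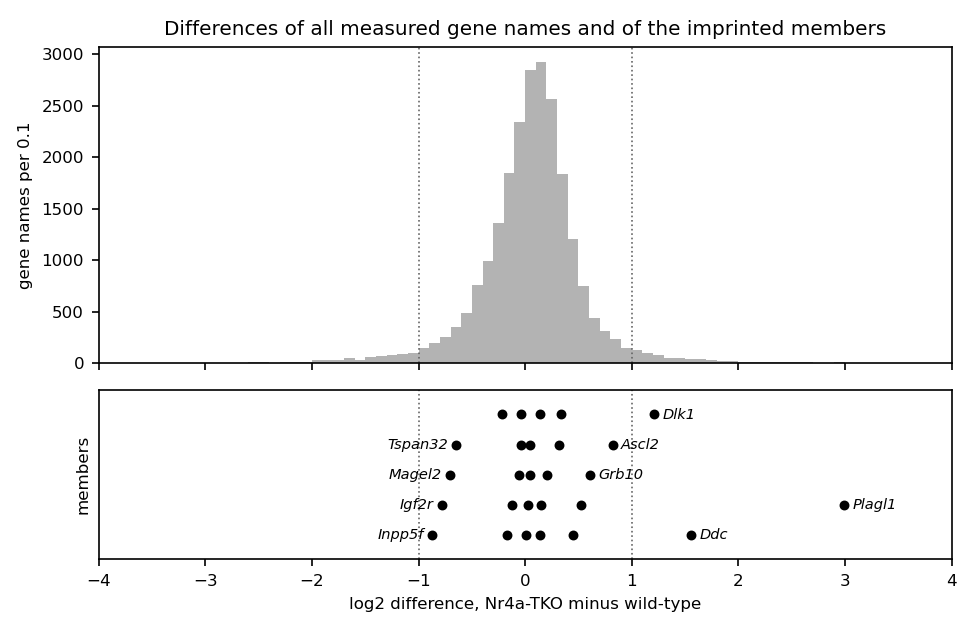
Top, the number of gene names per 0.1 of log2 difference (Nr4a-TKO minus wild-type) among the 23493 measured names, shown from -4 to 4. Bottom, the 27 measured members on the same axis at arbitrary height, with dotted lines at 2-fold; Plagl1, Ddc and Dlk1 lie right of the upper line and no member lies left of the lower one.

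Of 6 transcription regulators, 3 were measured. Ascl2, a basic helix-loop-helix factor needed in the placenta that also acts in follicular helper T cells, had -2.02 on the array labelled Nr4a-TKO and -2.84 on the wild-type array, a difference of 0.82. Its signals were 186 ± 19.9 and 116 ± 13.6, so the scanner errors did not overlap. Ndn, which encodes necdin, a growth suppressor of neurons, had -4.16 and -3.95, a difference of -0.21 that was -0.01 with normexp. Zdbf2, a zinc finger gene, was above background on the array labelled Nr4a-TKO and not on the wild-type array, and was at least 1.35-fold higher. A bound of this kind sets the bright value against the lowest signal well above background on the dim array, or against the probe's own signal where that is higher. It is taken on the scanner's signal, and with normexp the difference can fall below it. With normexp Zdbf2 was 1.37-fold higher. The zinc finger genes Peg3 and Zim1 passed the background call on neither array.

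Among 10 genes of growth and signalling, 6 were measured, 1 of them past 2-fold, beside 6.22% of all names. Dlk1, a membrane protein of the Notch ligand type that restrains differentiation, had -2.67 on the array labelled Nr4a-TKO and -3.88 on the wild-type array, a difference of 1.21 or 2.31-fold. These came from dim signals of 118 ± 13.9 and 56.5 ± 9.03 at 110698721 to 110698781 on chromosome 12. With normexp the difference was 1.56-fold, and the second Dlk1 probe passed on neither array. Dlk1 was therefore past 2-fold by 1 dim probe in the chosen setting.

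Igf2r, the receptor that removes IGF2 and sorts lysosomal enzymes, was lower by 1.72-fold, with 1.89 on the array labelled Nr4a-TKO and 2.67 on the wild-type array. Its probe had 10 spots on each array, and they make this the member difference with most spots behind it. The lowest, median and highest spots were 1.81, 1.89 and 1.97 on the array labelled Nr4a-TKO, against 2.49, 2.66 and 2.81 on the wild-type array. The spots of the arrays did not overlap, which bears on the array measurement and not on variation between mice.

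The other growth genes lay closer to 0 or at low signal. Inpp5f, an inositol phosphatase gene of endosomes, had -1.54 on the array labelled Nr4a-TKO and -0.66 on the wild-type array, a difference of -0.87, and -0.33 at its second probe. Grb10, an adaptor that inhibits insulin and IGF receptors, had -3.79 and -4.41, a difference of 0.61 that was 0.32 with normexp. Cdkn1c, the cell cycle inhibitor p57, had -2.14 and -2.58, a difference of 0.45. Gnas, the stimulatory G protein alpha subunit, was bright on both arrays at 6.26 and 6.42, and its 3 measured probes differed by -0.17 to -0.01. Igf2, the growth factor itself, was above background on the wild-type array and not on the array labelled Nr4a-TKO, and was at least 1.39-fold lower, or 1.23-fold with normexp. Phlda2, Rasgrf1 and Dcn, which encode a restraint on placental growth, a Ras exchange factor and decorin, were below the call on both arrays.

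Of the genes of ubiquitin and protein turnover, 4 of 6 were measured, with 0 past 2-fold and a median of 0.09. For all names the share past 2-fold was 6.22% and the median 0.08. Magel2, a partner of ubiquitin ligases on endosomes, had -3.49 on the array labelled Nr4a-TKO and -2.78 on the wild-type array, a difference of -0.71 that was -0.35 with normexp. Ube3a, the ubiquitin ligase lost in Angelman syndrome, had 1.08 and 0.88, and its probes differed by 0.20 and 0.03. Commd1, which acts in copper handling and NF-kappaB turnover, had 4.38 and 4.24. Asb4, a SOCS-box protein gene, had -4.29 and -4.32. The ring finger gene Mkrn3 and the deubiquitinase gene Usp29 were below that call on both arrays.

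All 3 genes of RNA handling and translation were measured and lay within 2-fold, where 6.22% of all names were past it. Impact, an inhibitor of the stress kinase GCN2, had 1.99 on the array labelled Nr4a-TKO and 1.85 on the wild-type array, a difference of 0.14, and 0.30 at its second probe. Zrsr1, a splicing factor gene, had 0.81 and 0.94. Snrpn, which encodes a core splicing protein most abundant in brain, was dim at -4.05 and -4.39, a difference of 0.34, and its other 2 probes were not well above background.

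Of 10 genes of membranes and traffic, 7 were measured, with 0 past 2-fold and a median of 0.01. The share past 2-fold and the median over all names were 6.22% and 0.08. Tspan32, a tetraspanin of blood cells, was lower at each of its 3 probes, by 0.65, 0.86 and 0.93 on the log2 scale. Its brightest probe had 3.67 on the array labelled Nr4a-TKO and 4.32 on the wild-type array, and the probes gave a mean of -0.81. Cd81, another tetraspanin, had 5.16 and 5.20, a difference smaller than the spread between spots.

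Nnat, a small endoplasmic reticulum protein gene that acts on calcium pumping, had -3.36 on the array labelled Nr4a-TKO and -3.89 on the wild-type array, a difference of 0.52 that was 0.25 with normexp. Osbpl5, an oxysterol-binding protein gene, had 1.94 and 1.90, Atp10a, a lipid flippase gene, 0.75 and 0.70, and Copg2, a vesicle coat subunit gene, 2.18 and 2.22. Slc22a18, a transporter gene, had -3.81 and -3.82. These last 4 differed by no more than 0.05 in size. Sgce, the epsilon-sarcoglycan gene, was above background on the wild-type array alone and was at least 1.56-fold lower on the array labelled Nr4a-TKO, with a normexp difference of -0.14. The potassium channel gene Kcnq1 and the neurabin gene Ppp1r9a were below the call on both arrays, and the 2 Kcnq1 probes overlap.

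Of the 7 remaining members 4 were measured. Ddc, the decarboxylase that makes dopamine and serotonin and a neighbour of Grb10, had -0.60 on the array labelled Nr4a-TKO and -2.15 on the wild-type array, a difference of 1.56 or 2.94-fold. The signals behind it were 498 ± 50.3 and 187 ± 20.02 at 11714106 to 11714165 on chromosome 11, and with normexp it was 2.38-fold. A second Ddc probe, at 11776262 to 11776321, did not pass on either array and differed by 0.26. The call for Ddc thus rests on 1 of its 2 probes.

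Rtl1, a gene derived from a retrotransposon that acts in the placenta, had -3.47 on the array labelled Nr4a-TKO and -3.79 on the wild-type array. Blcap, a small protein gene within which Nnat lies, had 2.20 and 2.06, and Nap1l4, a histone chaperone gene, 3.53 and 3.59. Peg10, a second retrotransposon-derived gene, Dio3, which inactivates thyroid hormone, and Mest, a hydrolase-like protein gene, passed on neither array. For Mest the probe with 10 spots passed in 3 spots on the array labelled Nr4a-TKO and in 1 on the wild-type array.

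**Figure D4:**
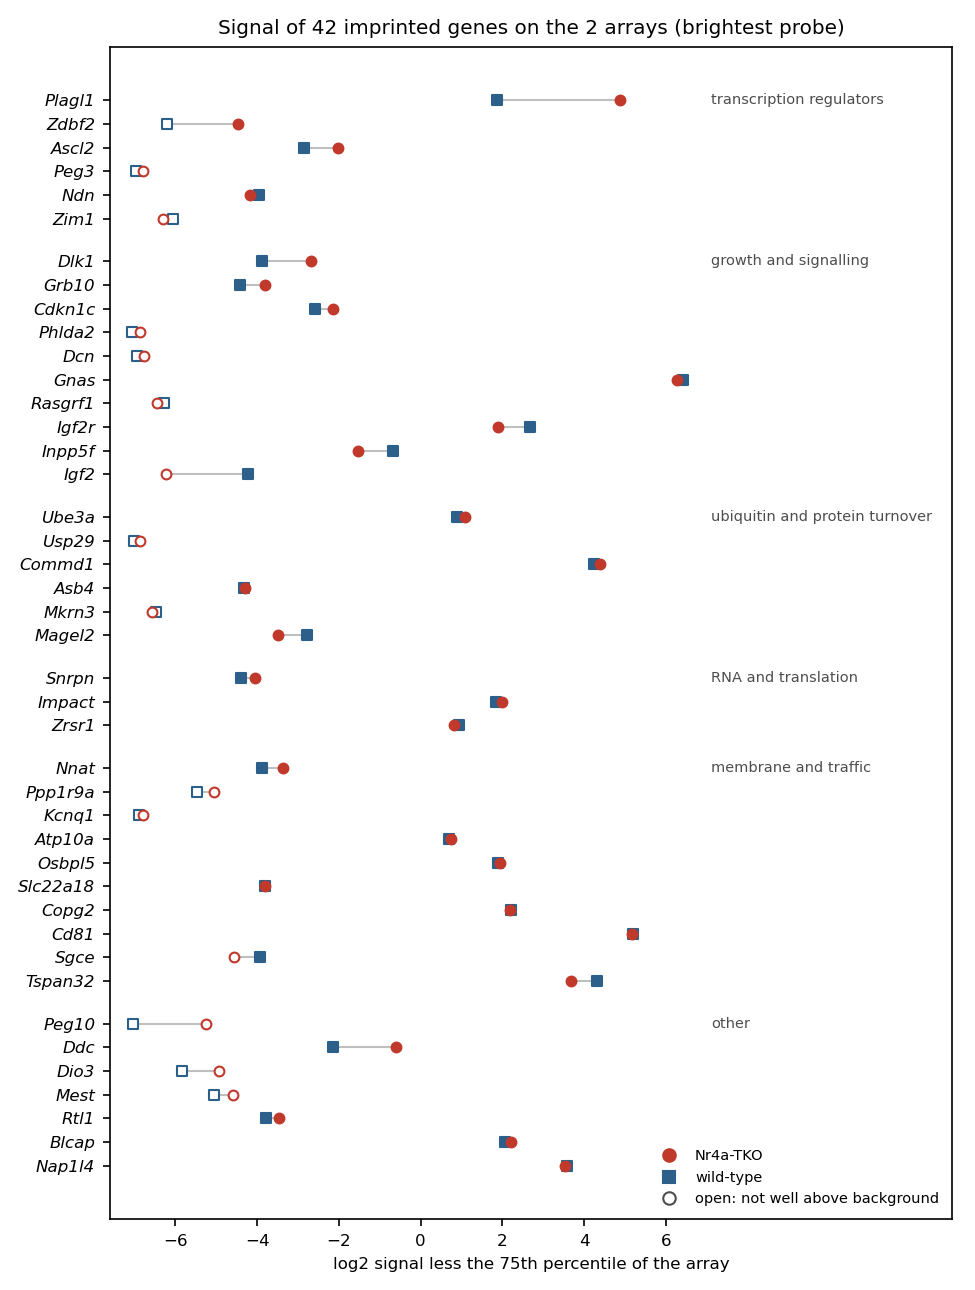
The log2 signal (less the array's 75th percentile) of the brightest probe of all 42 members, grouped by role and ordered within a role by difference, with circles for Nr4a-TKO and squares for wild-type. Open symbols were not well above background; the pair of Plagl1 symbols is the farthest apart among the 27 members with both symbols filled.

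By the parental copy usually expressed, 11 of 21 paternally expressed members were measured and had a median difference of 0.32, with Plagl1, Dlk1 and Ddc past 2-fold (Dlk1 not with normexp). Of 20 maternally expressed members 15 were measured, with 0 past 2-fold and a median of 0.04. Over all names 3.15% were at least 2-fold higher and the median was 0.08. Gnas, expressed from either copy according to the transcript, was counted in neither. The probes do not tell parental copies apart, and the paternal median includes Plagl1, for which the members were chosen. Domain by domain, the 7 measured genes of the Kcnq1 and H19/Igf2 domains on chromosome 7 had a median of 0.01 and ranged from -0.65 to 0.82. The 5 measured genes of the Snrpn and Ube3a domain had a median of 0.05 and ranged from -0.71 to 0.34.

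Noncoding RNAs of the same domains were looked at next, since several of them silence neighbouring imprinted genes. Of 13 listed, 10 were on the array and 7 were measured. Their median was 0.00, with 1 past 2-fold upward and 2 past it downward, beside 3.15% and 3.06% of all names. H19, the maternally expressed RNA beside Igf2, had 7 probes on chromosome 7. Its brightest had -0.07 on the array labelled Nr4a-TKO and -2.53 on the wild-type array, with signals of 717 ± 72.0 and 144 ± 15.8. That is a difference of 2.46 or 5.50-fold, and 3.85-fold with normexp. The other 4 probes measured on both arrays differed by 2.32, 1.91, 1.05 and 0.89, which with normexp were 1.43, 1.31, 0.59 and 0.46. A sixth was above background on the array labelled Nr4a-TKO alone and was at least 2.70-fold higher, or 1.67-fold with normexp, and a seventh, above background on the wild-type array alone, differed by 0.01.

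Airn, the paternally expressed RNA that overlaps Igf2r on the other strand and silences it on that copy in many tissues, was lower at all 4 probes. Its brightest probe, at 12944784 to 12944843 on chromosome 17, had 0.80 on the array labelled Nr4a-TKO and 2.07 on the wild-type array, a difference of -1.26 or 2.40-fold lower. A second was 1.96-fold lower. The other 2 were above background on the wild-type array alone and were lower by at least 3.65-fold and by at least 4.03-fold on the scanner's signal. With normexp these 2 were 1.71-fold and 2.05-fold lower, and the brightest probe 2.36-fold. Igf2r, which Airn overlaps, was itself lower by 1.72-fold, as given above.

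Kcnq1ot1, the paternally expressed RNA of the Kcnq1 domain, had 0.71 on the array labelled Nr4a-TKO and 1.78 on the wild-type array at its brighter probe, a difference of -1.07 or 2.11-fold lower. Its other probe differed by -0.92. A set of 5 probes that the file names KCNQ1ot1 lies on the opposite strand and differed by -0.13 to 0.29. These 5 lie between 150481806 and 150482398 on chromosome 7, and the lower, minus strand probes between 150434020 and 150440199. Strand and position thus cannot be told apart. The measured coding genes that Kcnq1ot1 is known to silence in the embryo or placenta did not differ in 1 direction. Ascl2 differed by 0.82 and Cdkn1c by 0.45, Tspan32 by -0.65, and Cd81, Slc22a18, Osbpl5 and Nap1l4 by -0.06 to 0.04.

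Mirg, a host of microRNAs on chromosome 12, differed by -0.18 at its brightest probe and by 1.06 and 0.06 at the others. Meg3, which neighbours Dlk1 and Rtl1 there, differed by 0.44 at its measured probe. Peg13 differed by 0.03 and Igf2os by 0.00. Nespas, an antisense RNA of the Gnas domain, was above background on the array labelled Nr4a-TKO alone and was at least 4.84-fold higher on the scanner's signal, or 2.002-fold with normexp, while the measured Gnas probes differed by at most 0.17 in size. Ipw and Peg3os passed on neither array.

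**Figure D5:**
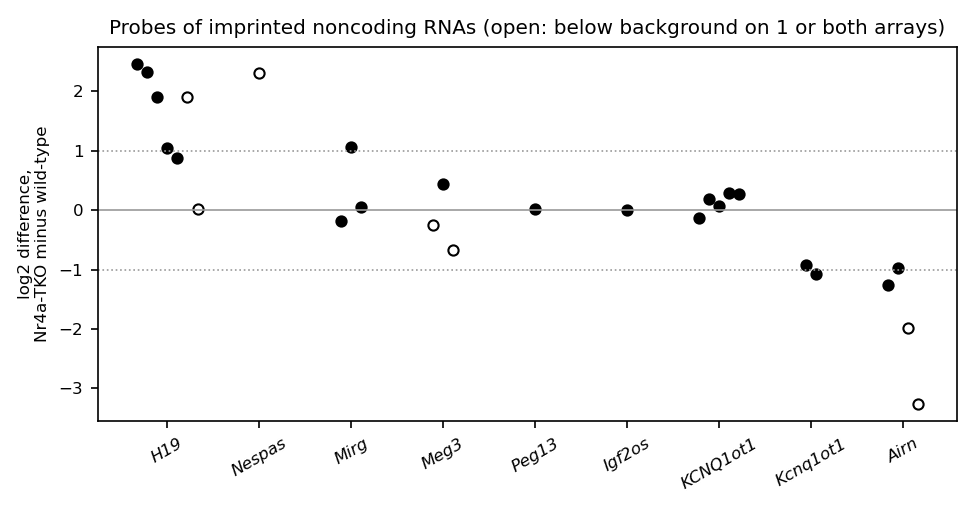
The log2 difference (Nr4a-TKO minus wild-type) of each probe of 9 names of imprinted noncoding RNAs, in order of position within a name, with dotted lines at 2-fold and open circles for probes not well above background on 1 or both arrays. H19 probes lie at or above 0, Airn and Kcnq1ot1 probes lie near or below the lower line, and the opposite-strand KCNQ1ot1 probes lie near 0.

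Further genes reported as imprinted in mouse gave a median of -0.05 over 24 measured of 36 on the array, with 3 past 2-fold upward and 1 downward, beside 3.15% and 3.06% of all names. Gatm, the first enzyme of creatine synthesis, had -0.33 on the array labelled Nr4a-TKO and -3.25 on the wild-type array, 7.55-fold higher, or 4.43-fold with normexp. Cdh15, a muscle cadherin gene, was 2.55-fold higher (1.91-fold with normexp) and Cars, a cysteine tRNA synthetase gene, 2.19-fold higher. Sfmbt2, a Polycomb group gene, had -2.83 and -0.05 at its brightest probe, 6.87-fold lower (4.38-fold with normexp), but differed by -0.67 at its other measured probe. Casd1 and Pon2, neighbours in the Peg10 domain, differed by -0.92 and -0.75 at their brightest probes. Casd1 differed by -0.66 at its other probe, and Pon2 by -0.35 and 0.13 at its others. The transporter gene Slc22a2 near Igf2r was at least 12.5-fold lower, or 7.103-fold with normexp.

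Among genes that set or keep imprints, 0 of 20 measured were past 2-fold in either direction, beside 6.22% of all names. Their median was 0.12, beside 0.08 over all names. The widest differences were 0.61 for Tet2, which oxidises methylated cytosine, and -0.60 and -0.56 for the DNA methyltransferases Dnmt3a and Dnmt3b. Ehmt2, a histone methyltransferase, differed by 0.43, and the Polycomb genes Eed and Suz12 by 0.41 and 0.28. Dnmt1, which copies methylation at replication, had 3.53 on both arrays, a difference of 0.00. Zfp57 and Trim28, which hold imprints in the early embryo, differed by -0.05 and 0.14.

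Relatives of Plagl1 and genes reported to respond to it in other cells were also listed. Plagl2 differed by 0.48 at its brightest probe, and Plag1 passed on neither array. Of 11 responsive genes 8 were measured and 3 passed 2-fold upward, with 8 of 8 higher by any amount and a median of 0.67. Over all names 3.15% passed 2-fold upward, 59.6% were higher by any amount and the median was 0.08. The 3 responsive genes past 2-fold were H19 and Dlk1, given above, and Cdkn1a, the cell cycle inhibitor p21. Cdkn1a had 3.46 on the array labelled Nr4a-TKO and 2.13 on the wild-type array at its brightest probe, 2.51-fold higher. Its other probes differed by 0.98 and 0.86, short of 2-fold. Col3a1, a collagen gene, differed by 0.76, Socs3, a cytokine signal inhibitor, by 0.59, and Cdkn1c by 0.45, while Slc2a4 and Tcf4 differed by 0.29 and 0.23, of which Tcf4 turned below 0 with spike-in centring. Igf2 went the other way by its bound, and Adcyap1r1 and Dcn were below the call. The list was chosen with Plagl1, H19 and Dlk1 values known, and their relation to the level of Plagl1 was not tested.

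The insulin-like growth factor axis had 12 measured of 18 genes, of which 3 passed 2-fold upward and 0 downward, beside 3.15% and 3.06% of all names. Their median was 0.33. Igf2bp3, an RNA-binding protein of Igf2 messages, had -1.26 on the array labelled Nr4a-TKO and -3.23 on the wild-type array, 3.91-fold higher. Igfbp6, which binds IGF2, was 2.57-fold higher and Irs2, an adaptor of insulin receptors, 2.10-fold higher. With normexp these were 2.54-fold, 1.65-fold and 1.99-fold, so that Igf2bp3 alone of the 3 was past 2-fold. Igfbp4 differed by -0.67, and Igf1 and Igf1r by 0.17 and 0.00.

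Markers of other cells were read beside H19, Dlk1 and Col3a1, which stromal cells also express. Of 10 stromal and epithelial markers 5 were measured, 1 was above background on the array labelled Nr4a-TKO alone and 4 on neither, and their summed linear signal was 1.59 on the array labelled Nr4a-TKO and 1.80 on the wild-type array. Without Pecam1 the sums were 0.815 and 0.547. Krt18 differed by 1.28, Col3a1 by 0.76, Col1a2 by -0.19, Epcam by -0.18 and Pecam1 by -0.70, and Col1a1 was at least 2.16-fold higher, or 1.51-fold with normexp. Pdgfra, Pdgfrb, Krt8 and Lum passed on neither array. The 7 macrophage and dendritic cell markers summed to 7.14 on the array labelled Nr4a-TKO and 2.52 on the wild-type array, but 2.73 and 2.17 without Batf3, which had 2.14 and -1.51. At their brightest probes Cd68 differed by 0.56, Csf1r by 0.22, Flt3 by 0.12 and Adgre1 by -0.02. The other Csf1r probes differed by 0.56 and -0.60. Lyz2 was above background on the wild-type array alone and Itgax on neither. Past 2-fold were 1 of 4 measured CD8 and NK cell markers (Gzma, 3.44-fold higher) and 1 of 4 of B cells (Cd79b, 2.51-fold higher). So were 1 of 4 of granulocytes (Mpo, 7.76-fold lower) and 1 of 2 of erythroid cells and platelets (Epor, 3.06-fold higher). Of all names 6.22% were past it in either direction. Klrd1, S100a8, S100a9, Hba-a1 and Hbb-b1 were above background on the wild-type array alone. Sums without 1 gene were added after seeing the data. The part of such cells in the results was not tested.

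Promoters were searched for GGGGCCCC, letters reported as the core of the sequence that Plagl1 binds, which read the same on both strands. The windows were RefSeq promoters of 300 bases (GRCm38.p6), 250 before and 50 after a gene's start. They held the letters for 338 of 27025 genes (1.25%) and for 4 of the 34 members with a window (11.8%). These were Peg3, Usp29, Rasgrf1 and Ppp1r9a, and 0 of the 4 passed the background call on either array. Peg3 and Usp29 belong to the same domain and lie on opposite strands. Whether their windows overlap was not checked, so these 4 may not be separate matches. The Plagl1 window did not hold the letters. A match is a description of these letters and not a binding site.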

How the data were processed

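Intensity per spot was deposited by the authors as output of Agilent Feature Extraction 10.10.1.1, with mm9 coordinates, per the file headers. Detrending, both spatial and multiplicative, was switched on, as was the use of surrogates for dim spots, per the same headers. A deposited log2 table held, by comparison with the scanner values, each array's log2 scanner signal minus a constant (9.55 for Nr4a-TKO and 9.69 for wild-type, to an SD of 0.00029). Its column medians were -3.53 and -3.54. Its direction and log base follow from that comparison, while the rule behind the constant is unknown.

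Each array held 62976 spots, 3671 of them controls, with 0 saturated, and both lay on 1 slide with 1 scan time. Controls and outlier spots (117 for Nr4a-TKO and 156 for wild-type) were left out, spots of a probe were averaged, and the 75th percentile of log2 signal over 55676 probes was subtracted. Transcript accessions named 27508 probes through RefSeq (GRCm38.p6), used for names and promoters only, and 28168 kept the file's name. The counting step was tested on simulated data.

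Samples were grouped by labelled genotype. The members and gene lists were chosen with earlier results of these data known. All members, every Plagl1 probe, genes within 500 kb, and up to 6 widest differences of each list were named. A few others were named after their values were seen. Alternatives were normexp (offset 50), other scalings, quantile normalization, spike-in and housekeeping centring, loess (span 0.3), the mean over a gene's probes, the values of the deposited log2 table, other filters on dim probes, and 1.5-fold and 3-fold thresholds. Python 3.11.15, numpy 2.4.6, pandas 2.3.3, matplotlib 3.10.9, R 4.3.3 and limma 3.58.1 were used.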

Additional observations from a re-analysis of the deposited data

How the results depend on the processing

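Plagl1 was higher in every setting tried. At its brightest probe the difference was 2.90 with quantile normalization, 2.72 with spike-in centring, 2.86 with housekeeping centring and 2.89 with loess, and the mean over all 4 of its probes was 1.76. The median over members was -0.23 with spike-in centring, -0.090 with housekeeping centring and 0.14 over all 42 members with no filter on dim probes. Members at least 2-fold higher numbered 2 with normexp and 2 with spike-in centring, without Dlk1 in both. They numbered 5 with no filter, which added Peg10 and Zdbf2, and 1 of 14 members, Plagl1, with a stricter filter. Members at least 2-fold lower numbered 2 with spike-in centring (Inpp5f and Igf2r), 1 with housekeeping centring (Inpp5f) and 1 with no filter (Igf2). At 1.5-fold 5 members were higher, Ascl2 and Grb10 among them, and 4 lower (Inpp5f, Igf2r, Magel2 and Tspan32), and at 3-fold 1 was higher. The cause of these shifts was not tested beyond the constant that each centring adds. Over all 23493 measured gene names, there were 741 higher and 720 lower in the chosen setting and 475 and 456 with normexp. With spike-in centring there were 449 and 1250, and with housekeeping centring 579 and 928. With no filter there were 1988 and 1834 of 34960 names, and with a stricter filter 332 and 362 of 13079. Of the 23493 names, 1965 were higher and 1728 lower at 1.5-fold, and 288 and 283 at 3-fold. Of the called names, 50.7% were higher, against 26.4% with spike-in centring and 38.4% with housekeeping centring. No paired analysis was possible because there is 1 array per genotype, and for the same reason no array could be left out and the slide could not be a block. Dim signal is a limit for the members, since 27 of 42 were well above background on both arrays, and lower bounds were taken on the scanner's signal alone.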
